A study of Homo sapiens with 8 samples.

Results

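MiRNA host genes are transcribed into RNAs from which a miRNA hairpin is cut, and the mature miRNA is then loaded into Ago2. Ago2 carries the miRNA to target transcripts, so RNA recovered with an Ago2 antibody is enriched for miRNA targets. The remainder of a host transcript plays no part in that complex unless it is a target itself. MIR155HG, long known as BIC, is a noncoding RNA whose exon contains the miR-155 hairpin and is known for high levels in Hodgkin lymphoma cells. In MCM7, SMC4 and EVL the miRNA genes lie in introns of protein-coding genes, and MIR17HG and DLEU2 are noncoding hosts of the miR-17 cluster and of miR-15a with miR-16.

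These 6 host genes were looked up among the 41000 probes of a 44k whole-genome array through the accession printed for each probe. Of the 6 genes, 4 had a matched probe, with 5 probes in all (1 each for MIR155HG, MCM7 and SMC4 and 2 for EVL), among 23958 probes that received the symbol of 16557 genes. No probe accession matched MIR17HG or DLEU2, and these genes were not analysed here. Probes without a RefSeq match stayed unnamed, so that probes of these genes could be among them. After the filters on detection and dye consistency 3 of the 5 probes were kept (MIR155HG, MCM7 and SMC4), among 22470 kept probes.

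The study used L1236, an established Hodgkin lymphoma cell line, transduced with a retroviral pMSCV-PIG vector that was either empty (EV cells) or held a miR-155 sponge, a transcript with repeated miR-155 binding sites that competes for the miRNA. GFP+ cells were sorted, and RNA was taken from the whole lysate (total or T fraction) and from an Ago2 immunoprecipitate (IP fraction). The T and IP fractions of both populations make up 4 groups with 1 RNA sample each, and all 4 share the cell line and the vector backbone. Each RNA was labelled with Cy3 and with Cy5, and T and IP of one cell population were hybridised together in both dye orientations, giving 8 channels on 4 arrays of 1 slide. No test between groups was possible with 1 RNA sample per group. Values are given as mean ± SD over the 2 dyes or the 2 dye orientations (n = 2 labellings of the same RNA), so that the spread over cultures and over precipitations is not covered. A median over several genes or probes is the median of these means. Its SD is that of the 2 medians taken separately per dye or orientation and is not a spread over genes.

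The share of spots well above background lay between 54.1% (sponge T in Cy5) and 65.7% over the 8 channels, and no spot was saturated. Across kept probes, which are not independent, log2 IP/T correlated between the dye orientations with r = 0.944 for EV and r = 0.919 for sponge cells. All 8 Hodgkin cell markers (among them TNFRSF8, CCL17 and IRF4) were well above background in the 4 T channels. Of the B-lineage markers, which were listed as usually low in Hodgkin cells, 6 of 8 were as well (not MS4A1 and CD22). Of the markers of other cell types it was 2 of 6 for T cells, 2 of 4 for monocytes and 0 of 3 matched for fibroblasts. Each marker was read at its probe with the most T channels well above background, which favours detection.

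The mature miRNAs of the hosts are shown because hosts on different chromosomes carry miRNAs of the same family, so that several members of one seed family leave different host transcripts. Sequences are from RefSeq (GRCh38.p14), written 5′ to 3′, with the seed (bases 2 to 8) in capitals. The first sequence comes from MIR155HG, the next 3 from MCM7, the following 2 from SMC4 and the next from EVL. The last 3 come from MIR17HG and DLEU2, which had no matched probe.
hsa-miR-155-5p: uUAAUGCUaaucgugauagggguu
hsa-miR-106b-5p: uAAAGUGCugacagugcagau
hsa-miR-93-5p: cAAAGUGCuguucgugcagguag
hsa-miR-25-3p: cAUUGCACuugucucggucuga
hsa-miR-15b-5p: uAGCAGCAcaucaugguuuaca
hsa-miR-16-5p: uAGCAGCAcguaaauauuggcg
hsa-miR-342-3p: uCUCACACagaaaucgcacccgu
hsa-miR-17-5p: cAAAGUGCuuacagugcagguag
hsa-miR-92a-3p: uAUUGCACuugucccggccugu
hsa-miR-15a-5p: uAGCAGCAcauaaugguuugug

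For 15 miRNA genes of the 6 hosts, each inside its host and on the same strand, 1 arm of the hairpin was chosen from general knowledge as the better known one, which gave 14 mature miRNAs and 7 seeds. The RefSeq table holds 16 miRNA genes in these hosts, with 31 mature miRNAs and 23 seeds when both arms are counted. The seed AAAGUGC is shared by 2 miRNAs of MCM7 and by 2 of MIR17HG (miR-17-5p and miR-20a-5p). The seed AUUGCAC is shared by miR-25-3p of MCM7 and miR-92a-3p of MIR17HG, and AGCAGCA by the miRNAs of SMC4 and DLEU2. Mature miR-16-5p is the same from both hosts. The seeds UAAUGCU of miR-155-5p and CUCACAC of miR-342-3p each occurred once, also among all 31. Mature miR-155-5p maps to chr21:25573983-25574006 (plus strand), miR-106b-5p to chr7:100094043-100094063 (minus strand), miR-15b-5p to chr3:160404607-160404628 (plus strand) and miR-342-3p to chr14:100109715-100109737 (plus strand). The arrays measure the long host transcripts and give no level for the mature miRNAs.

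MIR155HG was less abundant in the Ago2-IP fraction than in the T fraction of both cell populations. In EV cells its log2 signal (probe A_32_P108156, accession NR_001458) was 11.55 in Cy3 and 11.47 in Cy5 for T, against 10.61 and 10.48 for IP. In sponge cells it was 10.84 and 10.93 for T and 10.18 and 10.15 for IP. Both IP channels lay below both T channels in each population, and all 8 channels were well above background. The log2 IP/T ratio was -0.96 ± 0.15 in EV cells, a 1.95-fold lower signal in IP, and -0.72 ± 0.05 in sponge cells (1.65-fold). With normexp background correction it was -0.58 (loess) or -0.68 (quantile) in EV cells and -0.36 or -0.47 in sponge cells, smaller by over 1.5 times except for EV cells with quantile normalisation. The single orientations of the main processing gave -1.07 and -0.86 in EV cells and -0.69 and -0.75 in sponge cells. As about equal amounts of RNA were labelled from both fractions, IP/T is a ratio relative to the other transcripts of each fraction and not the share of molecules bound to Ago2.

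SMC4, a core ATPase of the condensin complexes that compact chromosomes, had an IP/T value close to that of MIR155HG in EV cells with the main processing. For its probe A_23_P91900 (NM_005496) the log2 signal in EV cells was 11.74 and 11.60 in T and 10.70 and 10.76 in IP (Cy3 and Cy5). In sponge cells it was 11.80 and 11.48 in T and 10.90 and 10.65 in IP. Again the T and IP channels did not overlap. The log2 ratio was -0.93 ± 0.05 in EV cells and -0.86 ± 0.40 after sponge transduction, where the orientations were far apart (-1.15 and -0.58). Taken within Cy3 and within Cy5, the ratio was -1.03 and -0.83 in EV cells and -0.90 and -0.82 in sponge cells. With normexp and loess it was -0.72 in EV and -0.64 in sponge cells, against -0.58 and -0.36 for MIR155HG.

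MCM7, a subunit of the helicase that unwinds DNA at replication origins, had a smaller difference between the fractions with the main processing. The log2 signal of probe A_23_P93690 (NM_182776) in EV cells was 16.15 and 15.88 in T and 15.63 and 15.27 in IP. In sponge cells it was 16.30 and 16.11 in T and 15.90 and 15.62 in IP. Every T channel was above every IP channel of the same population, by as little as 0.21 in sponge cells and 0.25 in EV cells on the log2 scale. Both gaps were in the orientation with T in Cy5 and IP in Cy3 (log2 IP/T -0.21 and -0.25). The other orientation of EV cells gave -0.88, so that their mean of -0.57 ± 0.44 was only slightly larger than its SD. Cy3 signals of this probe exceeded Cy5 signals in every RNA, which sets the orientations apart. In sponge cells log2 IP/T was -0.45 ± 0.33. Taken within Cy3 and within Cy5, log2 IP/T was -0.52 and -0.61 in EV cells and -0.40 and -0.50 in sponge cells. With normexp and loess it was -0.66 in EV and -0.71 in sponge cells, larger differences than those of MIR155HG (-0.58 and -0.36). The order of the hosts thus depended on the processing.

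EVL, a member of the Ena/VASP family that promotes actin filament elongation, gave no usable IP/T. Probe A_23_P140427 (NM_016337) was well above background in 7 of 8 channels, the exception being sponge T in Cy5, and its Cy5 signal exceeded the Cy3 signal in every RNA. In EV cells the log2 signal was 6.31 in Cy3 and 7.03 in Cy5 for T and 5.48 and 6.87 for IP, a distance of 1.40 between the dyes in IP. In sponge cells it was 6.09 and 6.64 for T and 5.62 and 6.64 for IP. The probe was therefore removed by the filter that requires both dyes within 2-fold. Its log2 IP/T was 0.56 in one orientation and -1.55 in the other in EV cells (mean -0.49 ± 1.496) and -0.24 ± 1.11 in sponge cells. Taken within a single dye, log2 IP/T was below 0 in both populations, by little in Cy5 (-0.83 in Cy3 and -0.16 in Cy5 in EV cells, -0.47 and -0.00346 in sponge cells). The other EVL probe, A_23_P129038, was well above background in 0 of 8 channels and gives neither a level nor a ratio.

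**Figure D1:**
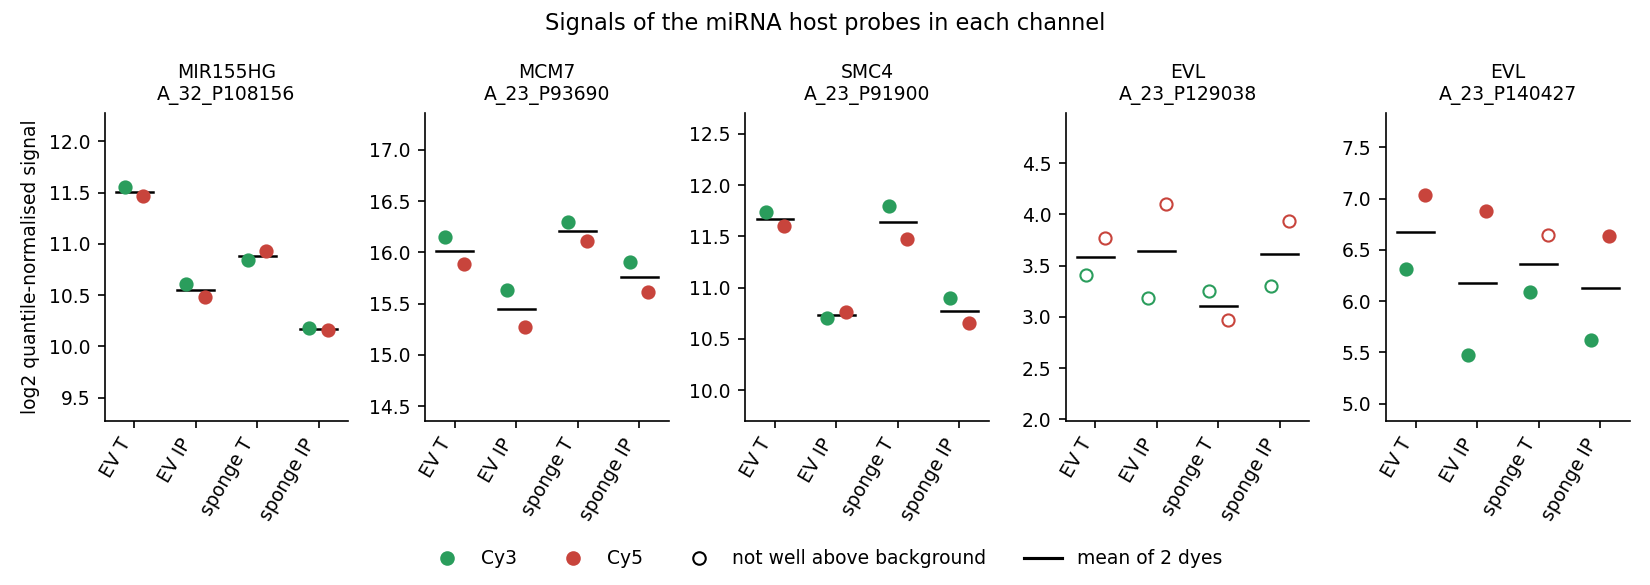
Log2 quantile-normalised signal (vertical axis) of the 5 host probes in the 4 RNA samples (horizontal axis), with Cy3 in green and Cy5 in red, open circles where the spot was not well above background and a bar for the mean of the 2 dyes. Each panel has its own level but spans the same number of log2 units. For MIR155HG, MCM7 and SMC4 both T channels lie above both IP channels in each cell population, while for EVL probe A_23_P140427 the dyes are further apart than the means of the fractions.

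To ask whether host transcripts were depleted from the Ago2 fraction, the kept probes were set against all kept probes. An IP signal at least 2-fold below T was found for 0 of the 3 host probes in EV cells, where 19% of all kept probes met this criterion. In sponge cells it was again found for 0 of 3, against 17.8%. MIR155HG (1.95-fold lower in IP) and SMC4 (1.91-fold) lay just short of this criterion in EV cells. The EV count became 1 with Cy3 labels only or with arrays having IP in Cy5 only. An IP signal of at least 2-fold T was likewise found for 0 of 3 in both populations, against 17.5% of all kept probes with EV and 17.5% with sponge. IP was below T in both orientations for 3 of 3 host probes, in either population. This lesser criterion was met by 50% (EV) and 47.5% (sponge) of all kept probes, so that 3 probes say little about hosts as a class.

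The host probes lay in the lower part of the distribution without standing apart from it. Of all kept probes 20.2% had a lower log2 IP/T in EV cells than MIR155HG, 21.2% a lower one than SMC4 and 34.5% a lower one than MCM7. In sponge cells these shares were 27.2%, 22.3% and 37.7%. The median over the 3 kept host probes was -0.93 ± 0.08 for EV and -0.72 ± 0.08 for sponge cells, against -0.16 and -0.13 over all kept probes. In sponge cells the host medians of the single orientations were -0.69 and -0.58, so that the median of the averaged ratios lay outside both. With normexp background correction and loess normalisation the median of all kept probes moved to 0.01 in both populations. Relative to that median, log2 IP/T in EV cells was -0.80 for MIR155HG with the main processing and -0.59 with normexp and loess, -0.78 and -0.73 for SMC4, and -0.41 and -0.67 for MCM7.

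**Figure D2:**
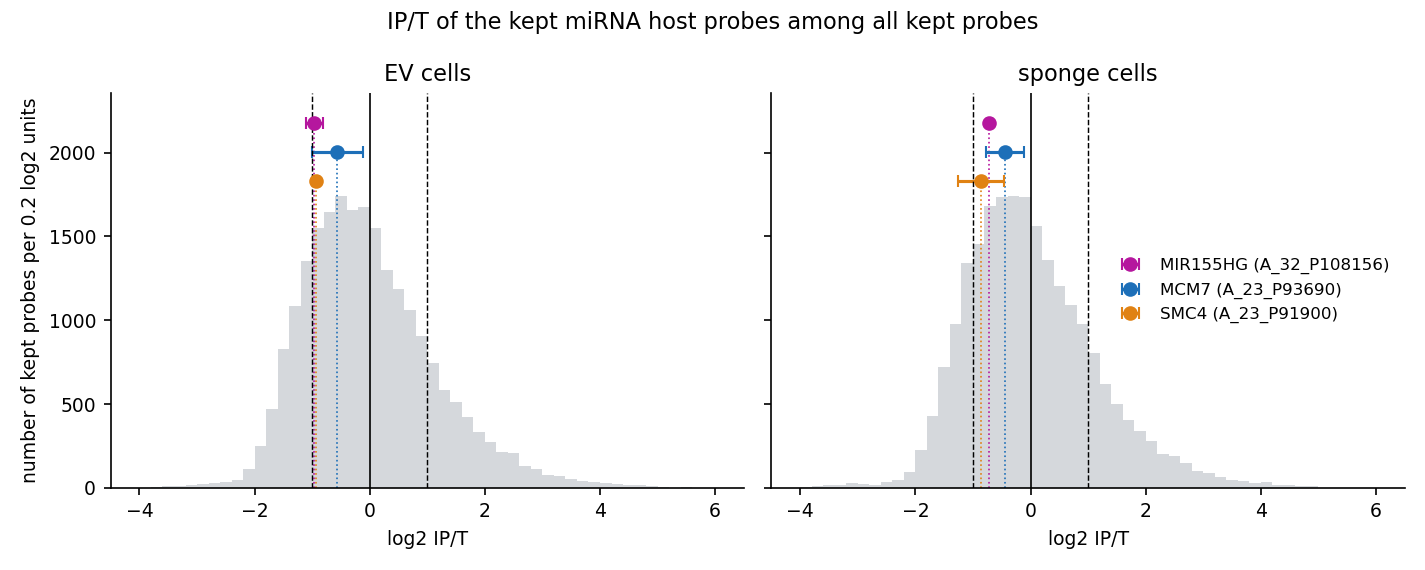
Histograms of log2 IP/T (horizontal axis) over the 22470 kept probes (grey, number of probes per bin, with values beyond the outer bins counted in them) in EV and sponge cells, with the 3 kept host probes as coloured points at arbitrary height and bars for the SD over the 2 dye orientations. Dashed lines mark a 2-fold ratio in either direction. All 3 hosts lie to the left of 0 and none reaches the left dashed line with its mean.

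Over a wider set of hosts, IP/T was centred close to that of all genes. Among RefSeq protein-coding genes with a miRNA gene inside them on the same strand, 669 had a probe and 508 had a kept probe. The median ratio of these hosts was -0.14 ± 0.01 (log2, EV cells) and -0.15 ± 0.06 (sponge cells), beside -0.16 ± 0.03 over the 11115 protein-coding genes outside the 6 hosts in EV cells. IP was at least 2-fold below T for 90 of the 508 in EV cells (17.7%), against 18.7% of the 11115 protein-coding genes and 19% of all kept probes. It was at least 2-fold above T for another 90 (17.7%), against 18.2% of these genes and 17.5% of all kept probes. Where the miRNA gene lay on the other strand only, 69 genes were kept, with a median of -0.32 ± 0.03. These annotation-based groups were formed after other values had been seen and are given as descriptions.

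A written list of 86 further host genes had 42 kept, of which 36 hold a RefSeq miRNA gene on the same strand. The median log2 IP/T was -0.27 ± 0.05 in EV cells. The lowest values were those of DNM2, a dynamin GTPase of endocytosis (-1.61 ± 0.19), DALRD3, the host of miR-191 and miR-425 (-1.51 ± 0.06), and HUWE1, a ubiquitin ligase and host of miR-98 (-1.41 ± 0.08). The highest with signal well above background in both fractions were those of NFYC, a CCAAT-binding transcription factor subunit and host of miR-30e (2.64 ± 0.36) and CHM, a Rab escort protein and host of miR-361 (2.44 ± 0.22). IGF2, a growth factor counted among the 42, was well above background in all 4 IP channels and 0 of 4 T channels, so that it passed the detection filter through IP alone and its ratio is not given. Of the 42 hosts 10 (23.8%) were at least 2-fold below T, against 19% of all kept probes. At least 2-fold above T were 7 (16.7%), IGF2 among them, against 17.5%. The median also includes IGF2, and was -0.39 when detection in all 8 channels was required.

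MIR155HG was also set beside other noncoding RNAs. Of 48 other RefSeq lncRNA genes with a probe 16 were kept, and their median ratio was -0.36 ± 0.22 (log2, EV cells) and -0.48 ± 0.09 (sponge cells). IP was at least 2-fold below T for 3 and at least 2-fold above T for 3 of them in EV cells (18.75% each, against 19% and 17.5% of all kept probes), with 1 of the latter well above background in IP channels only. In a written list of long noncoding and snoRNA host genes, 8 of 51 were kept, with a median of 0.03 ± 0.26. The snoRNA hosts SNHG5 (-1.003 ± 0.08) and SNHG10 (-0.96 ± 0.01) and the nuclear RNA MIAT (-0.90 ± 0.21) had ratios close to that of MIR155HG in EV cells. The nuclear speckle RNA MALAT1 (0.59 ± 0.28), SNHG1 (0.55 ± 0.02) and TAF1D, a protein-coding snoRNA host (0.75 ± 0.16), had more signal in IP than in T.

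The protein-coding hosts were further set beside genes whose products act with theirs. Among 13 genes that load or form the replicative helicase with MCM7, the median ratio was -0.67 ± 0.02 (log2, EV cells) and -0.60 ± 0.06 (sponge cells). IP was below T in both orientations for 11 of the 13 with EV (50% of all kept probes) and 10 with sponge (47.5%). In EV cells the other MCM subunits had values of -1.12 ± 0.07 (MCM4), -1.03 ± 0.08 (MCM2), -1.02 ± 0.20 (MCM3), -0.67 ± 0.13 (MCM5) and -0.44 ± 0.02 (MCM6). MCM7 thus lay between MCM5 and MCM6, though the SD of its ratio over the dye orientations covers most of this range. Within a single dye the MCM7 ratio was -0.52 (Cy3) and -0.61 (Cy5). The loading factors CDT1 (-1.33 ± 0.40) and CDC6 (-0.33 ± 0.18) and the initiation factors CDC45 (-0.79 ± 0.33) and MCM10 (-0.21 ± 0.01) were also below 0. A less bright MCM10 probe was at -0.46, so that probes of the same gene differed by more than the SD given. The GINS complex, which binds the helicase, was split. GINS4 (-0.96 ± 0.31) and GINS3 (-0.20 ± 0.17) were below 0, while GINS2 (1.03 ± 0.17) and GINS1 (1.86 ± 0.04) had at least 2-fold more signal in IP than in T.

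All 7 condensin genes beside SMC4 had IP below T in both orientations in EV cells (50% of all kept probes), and 6 of 7 in sponge cells (47.5%). The median ratio was -0.72 ± 0.06 (log2, EV cells) and -0.81 ± 0.06 (sponge cells). SMC2, the direct partner of SMC4, was at -0.72 ± 0.02 in EV cells. Of the condensin I subunits NCAPH was at -1.07 ± 0.08, NCAPG at -0.70 ± 0.18 and NCAPD2 at -0.11 ± 0.12, and of the condensin II subunits NCAPH2 was at -1.53 ± 0.05, NCAPD3 at -0.999 ± 0.30 and NCAPG2 at -0.31 ± 0.09. SMC4 lay inside this range.

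Of 6 genes that act with EVL on actin 5 were kept, ENAH being removed by the filters. ZYX (-0.81 ± 0.10), VASP (-0.63 ± 0.05), LPXN (-0.44 ± 0.16) and PFN1 (-0.38 ± 0.26) had less signal in IP than in T in EV cells, and TES had more (1.03 ± 0.14).

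**Figure D3:**
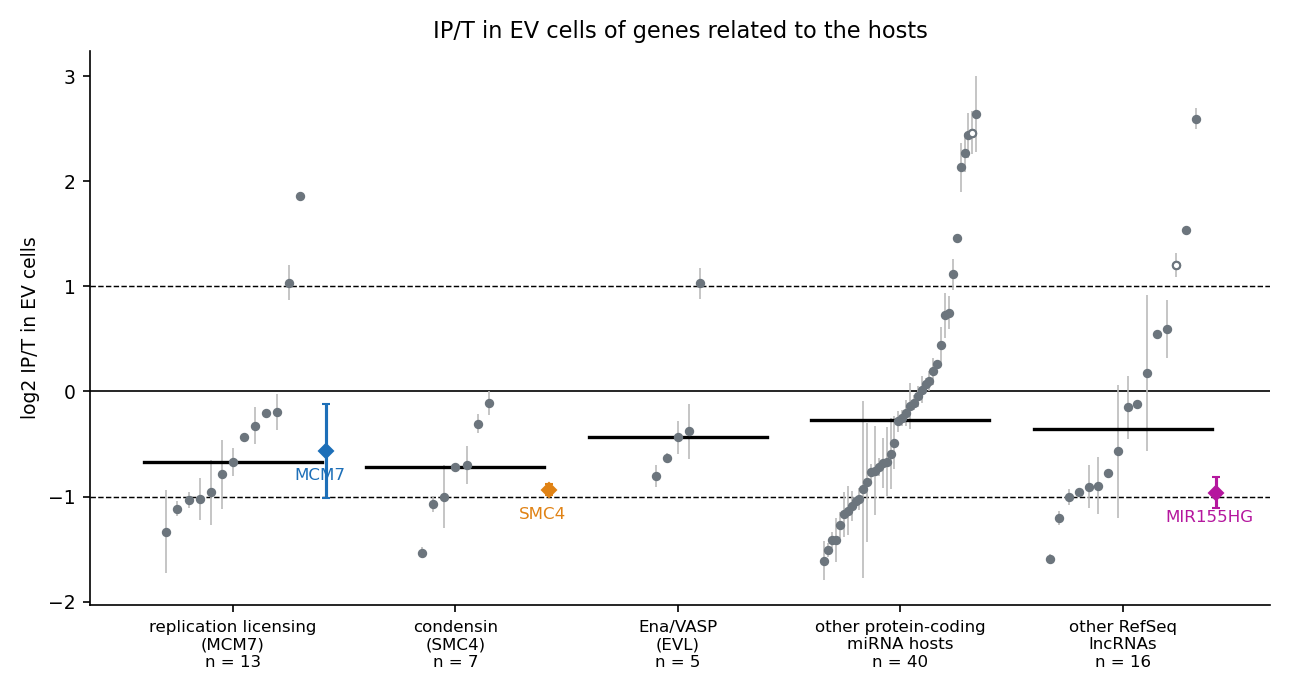
Log2 IP/T in EV cells (vertical axis) of the genes of each group (horizontal axis, n genes, each at its brightest kept probe), with grey bars for the SD over the 2 dye orientations, a black bar for the group median and coloured diamonds for MCM7, SMC4 and MIR155HG. Open circles mark 2 genes well above background in IP only, and dashed lines a 2-fold ratio. The 7 condensin genes all lie below 0, whereas other protein-coding hosts and lncRNAs extend from below -1 to above 2.

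To ask whether the hosts changed with the miR-155 sponge, sponge and EV cells were compared within each fraction. MIR155HG was lower in sponge cells in both fractions. In T the difference was -0.62 ± 0.12 on the log2 scale, or 1.54-fold, just past the 1.5-fold criterion, with -0.71 in Cy3 and -0.54 in Cy5. Of all kept probes 1.28% had a lower value. In the IP fraction it was -0.38 ± 0.08 (1.30-fold), with -0.44 in Cy3 and -0.33 in Cy5, and 3.16% of all kept probes were lower. Both sponge channels lay below both EV channels in each fraction. With normexp correction the difference in T was -0.44, short of 1.5-fold. In RNA from a cell population, less RNA per cell and fewer cells that express the gene cannot be told apart.

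In T, a 1.5-fold or larger difference that held its sign over the dyes was thus seen for 1 of the 3 host probes in the lower direction (MIR155HG), against 1.56% of all kept probes, and for 0 of 3 in the higher direction, against 1.37%. The hosts and the threshold were chosen with the MIR155HG value in T already known, so that this count is a description only. In IP it was seen for 0 of 3 in either direction, where 0.645% of all kept probes were lower and 0.859% higher. MCM7 had more signal in sponge cells in all 4 pairs of channels of the same dye. Its difference was 0.19 ± 0.06 in T and 0.31 ± 0.05 in IP, where 93.3% of all kept probes had a lower value. For SMC4 the sponge and EV channels overlapped in both fractions, with -0.03 ± 0.13 in T and 0.04 ± 0.22 in IP. For EVL (A_23_P140427) the differences were -0.30 ± 0.12 in T and -0.05 ± 0.26 in IP, and only 1 of the 2 sponge T channels was well above background.

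Among the complex partners, none of the 13 helicase, 7 condensin and 5 actin genes reached 1.5-fold between sponge and EV cells in T or in IP. Of all kept probes 1.56% were lower and 1.37% higher in T, and 0.645% and 0.859% in IP. With shares this small, the absence of a call among so few genes says little about the partners. Their median differences in T were 0.02 ± 0.02, 0.13 ± 0.01 and -0.04 ± 0.09 on the log2 scale, beside -0.02 over all kept probes.

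The IP/T ratio itself differed by less than 1.5-fold between the populations for the 3 kept hosts. The change in log2 IP/T (sponge minus EV) was 0.24 ± 0.20 for MIR155HG, 0.12 ± 0.11 for MCM7 and 0.07 ± 0.35 for SMC4, beside a median of 0.02 over all kept probes. For MIR155HG both orientations were above 0 (0.38 and 0.10), and this change equals the difference in IP minus that in T. For SMC4 the orientations had opposite signs (-0.18 and 0.32), and for MCM7 normexp with loess gave -0.04. A change of at least 1.5-fold was seen for 0 of 3 host probes, where 1.34% of all kept probes were lower and 1.67% higher in sponge cells.

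**Figure D4:**
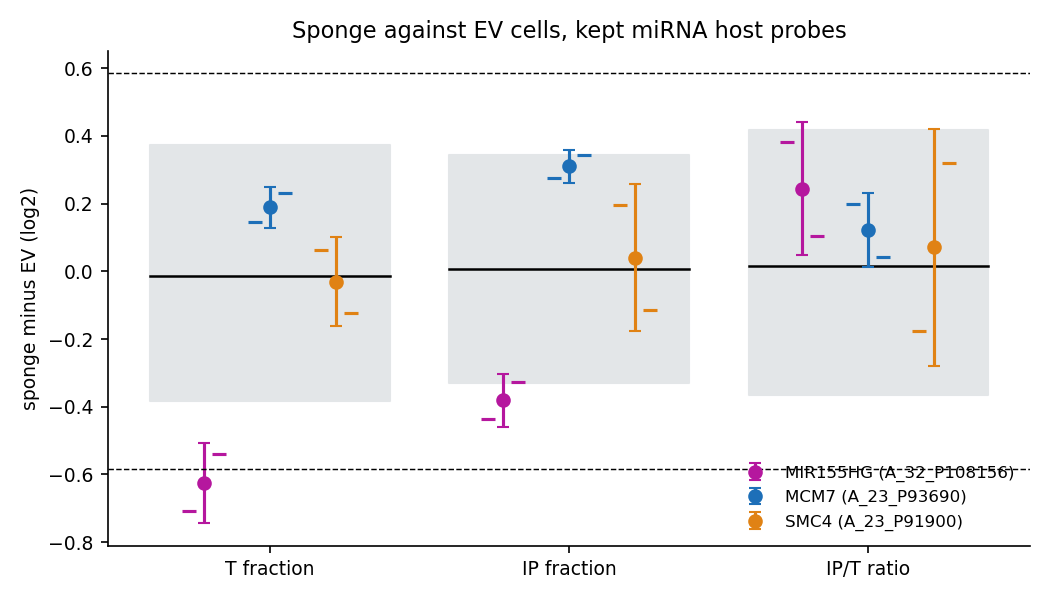
Sponge minus EV on the log2 scale (vertical axis) for the T fraction, the IP fraction and the IP/T ratio (horizontal axis) of MIR155HG, MCM7 and SMC4, with points for the mean, bars for the SD and dashes for the 2 single dyes or orientations. Grey boxes span the 5th to 95th percentile of the kept probes around their median (black line), and dashed lines mark 1.5-fold. MIR155HG lies below the grey box in T and in IP, and below the dashed line in T.

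To describe which transcripts had the most similar profile, signals were centred over the 8 channels and the root mean square distance was taken to 14150 named probes detected in all channels. The closest to MIR155HG were HLA-DPA1, a class II antigen-presenting chain (distance 0.0961), PPM1F, a protein phosphatase (0.106), and CEP72, a centrosomal protein (0.106). These 3 probes, chosen for their likeness, had differences in T of -0.61, -0.64 and -0.45 between sponge and EV cells and log2 IP/T of -0.79, -1.04 and -0.85 in EV cells. The closest to MCM7 were CXorf38 (0.0448), MCM10 at the less bright probe named above (0.0773) and FANCI, of the Fanconi anaemia DNA repair pathway (0.0805). The closest to SMC4 were MTO1, which modifies mitochondrial tRNA (0.0468), EFCAB7 (0.0514) and PCM1, a centriolar satellite protein (0.0592). The distances within 8 channels of 4 RNA samples are a description of these arrays.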

How the data were processed

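Total and Ago2-IP RNA of EV and sponge L1236 cells was measured on 4 two-colour Agilent arrays. The deposited scanner files hold spot intensity values, which the authors extracted with Agilent Feature Extraction (10.7.3.1 in the file headers, 10.5.1.1 in the submitters' processing notes), subtracting background and correcting for dye. A deposited table gives log2 values of 22282 probes as normalised by the authors. The 8 scanner files are 4 arrays, each present in a pair of files with the same values, and for each labelled RNA the channel of its own dye was read. All arrays were on 1 slide with 1 scan time.

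Following the study's methods, log2 processed signals were quantile normalised over the 8 channels with limma 3.58.1 in R 4.3.3 (control and outlier spots left out, spots of a probe averaged). Of 41000 probes, 25827 were well above background in at least 4 channels with a value in all 8, and 3357 of these were removed because Cy3 and Cy5 of an RNA differed by more than 2-fold, leaving 22470. IP/T is the mean over both dye orientations, and genes of lists were taken at the kept probe of highest mean signal. Probe accessions were matched to RefSeq genes (GRCh38.p14), used for names because the headers give another build (hg18). The ratio computation was tested on simulated data.

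With 1 RNA sample per group no test was made. Calls required a ratio of 2 for IP/T and 1.5-fold with the same sign in both dyes for sponge against EV. The hosts, the gene lists and these thresholds were chosen with earlier results of these data known, including the value of MIR155HG in T. Named are all host probes, all kept complex partners, the 3 highest and 3 lowest of the further host and noncoding lists, and the 3 nearest profiles per host. The number of arrays limits the precision. Alternatives were normexp (offset 50, on median signals) with loess or quantile normalisation, scaling to the 75th percentile, the authors' values, other filters, and single dyes or orientations.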

Additional observations from a re-analysis of the deposited data

How the results depend on the processing

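Without a second RNA sample per group no replicate could be left out, and no paired analysis was possible because each group holds 1 RNA sample. Of 299 alternative values, 266 stayed within 1 SD of the reported value or, for counts, within 1.5 times, 32 moved further and 1 reversed. Part of this was fixed in advance. Filters on detection or dyes leave the value of a kept single probe unchanged. For a single probe, IP/T of a single orientation always lies within 1 SD of the mean over both. The same holds for a T or IP difference of a single dye, so that the tally is no measure of robustness. The median log2 IP/T of the kept host probes was -0.62 in EV and -0.50 in sponge cells with normexp, loess and Aquantile, and -0.65 and -0.52 with normexp and quantile. Without the dye consistency filter, which adds an EVL probe, it was -0.75 and -0.58. It was -0.83 in EV cells with Cy5 labels only and -0.58 in sponge cells with arrays having IP in Cy3 only. The count of host probes with IP at least 2-fold below T became 1 in EV cells with Cy3 labels only, and 1 in each population with arrays having IP in Cy5 only. The median of the 42 other hosts in EV cells was -0.064 with normexp, loess and Aquantile, -0.11 with normexp and quantile, -0.39 with detection in all 8 channels and -0.49 with dyes within 1.5-fold. The MIR155HG difference between sponge and EV cells was -0.44 in T and -0.23 in IP with either normexp setting, and -0.71 to -0.44 in T and -0.44 to -0.23 in IP over all alternatives. The change in log2 IP/T of MCM7 was -0.0428 with normexp, loess and Aquantile. The cause of these shifts was not tested.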
